A study of Homo sapiens with 6 samples.

Results

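NF-κB is a family of dimeric transcription factors held inactive in the cytoplasm by inhibitor proteins and released when inflammatory receptors signal. The 10 genes described here are its 5 subunit genes (NFKB1, NFKB2, RELA, RELB and REL), 4 genes that restrain or tune it (NFKBIA, NFKBIE, NFKBIZ and TNFAIP3) and ICAM1, an adhesion molecule that NF-κB induces. They were taken by gene symbol from the deposited table, where all 10 were found among 32299 genes, and all 10 were among the 17927 genes with enough counts to be tested. The libraries came from U87, an established human glioblastoma cell line: 3 were labelled as transfected with a control vector and 3 as overexpressing tau, the neuronal microtubule-binding protein encoded by MAPT. Below they are the control-labelled and tau-labelled libraries, and values per library are given in the order 1, 2, 3. No promoter, vector, clone or time after transfection is named in the labels, and separate cultures are not stated for the replicates, so p-values reflect the spread between these libraries alone, which may be technical.

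In resting cells the inhibitor encoded by NFKBIA, IκBα, binds dimers of RELA and NFKB1 products. Signals from receptors for tumour necrosis factor or interleukin-1 activate a kinase complex that marks IκBα for destruction, and the freed dimers induce inflammatory genes. Those genes include NFKBIA and TNFAIP3, which shut the signal off. A second branch, driven by the kinase encoded by MAP3K14, processes the NFKB2 product into a partner for RELB. In glioblastoma NF-κB activity is associated with the mesenchymal tumour state.

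Total counts ran from 58229083 to 65512119 per library. MAPT, the gene the labels say was overexpressed, gave counts of 279, 391 and 345 under the control label and 145, 150 and 176 under the tau label. It was therefore lower in every tau-labelled library, with a log2 fold change of -1.20 (SE 0.21, edgeR adjusted p = 0.00151), against the labels, and every direction below is that of the libraries labelled tau relative to those labelled control. The sources used here do not show whether reads of an introduced tau sequence were counted under MAPT or whether the labels are exchanged, and with exchanged labels every sign below would turn. Of the markers of glioma and astrocytic cells, VIM and CD44 were abundant and NES ran from 11.8 to 12.6 FPKM under the control label and from 2.80 to 3.18 under the tau label, whereas GFAP was at 0.0423 to 0.141 FPKM and S100B and SOX2 were at or near 0. FPKM, the authors' measure of level, is the number of fragments scaled to transcript length and library depth. Of 6 myeloid markers, AIF1 was at 0 in all 6 libraries and ITGAM was at most 0.106 FPKM. PTPRC was not found by its symbol in the authors' deposited table. CSF1R, the receptor for a macrophage growth factor, ran from 5.72 to 6.29 FPKM under the control label and from 1.07 to 1.42 under the tau label, and CD14 from 0.759 to 1.14 and from 0.116 to 0.154. The summed level of the list, nearly all of it CD68, ran from 146 to 165 FPKM under the control label and from 74.2 to 89.1 under the tau label. Endothelial markers summed to 2.40 to 2.78 and 0.477 to 0.487 FPKM. The lymphoid sum was at most 0.230 FPKM. The part of these differences in the results below was not tested.

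The promoters are shown because the pathway is wired through them: several members carry κB sites, the DNA letters that NF-κB dimers bind, next to their own start sites. RefSeq windows on GRCh38.p14, from 250 bases before to 50 bases after a start site, were matched for 8 of the 10 genes. RELB and NFKBIE are named only. Where several start sites were listed, the window nearest to the gene's start in the deposited table was used. Windows were searched on both strands for the κB consensus and for the κB variant preferred by RELA and REL, whose matches may overlap, and capitals mark the letters matched. NFKBIA (chr14:35404700-35404999, minus strand), ICAM1 (chr19:10270870-10271169, plus strand) and TNFAIP3 (chr6:137867009-137867308, plus strand) read as follows, 5′ to 3′.
NFKBIA: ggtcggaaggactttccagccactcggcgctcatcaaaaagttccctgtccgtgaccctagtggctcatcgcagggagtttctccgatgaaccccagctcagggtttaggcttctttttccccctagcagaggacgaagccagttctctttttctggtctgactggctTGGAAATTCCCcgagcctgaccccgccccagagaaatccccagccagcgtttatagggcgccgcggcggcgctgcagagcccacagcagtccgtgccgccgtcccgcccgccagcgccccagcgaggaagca
ICAM1: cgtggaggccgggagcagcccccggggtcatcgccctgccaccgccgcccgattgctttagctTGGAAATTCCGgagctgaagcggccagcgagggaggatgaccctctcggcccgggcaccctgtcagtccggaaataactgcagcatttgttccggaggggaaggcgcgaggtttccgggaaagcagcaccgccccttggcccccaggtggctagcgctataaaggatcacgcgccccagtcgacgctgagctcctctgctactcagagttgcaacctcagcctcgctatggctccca
TNFAIP3: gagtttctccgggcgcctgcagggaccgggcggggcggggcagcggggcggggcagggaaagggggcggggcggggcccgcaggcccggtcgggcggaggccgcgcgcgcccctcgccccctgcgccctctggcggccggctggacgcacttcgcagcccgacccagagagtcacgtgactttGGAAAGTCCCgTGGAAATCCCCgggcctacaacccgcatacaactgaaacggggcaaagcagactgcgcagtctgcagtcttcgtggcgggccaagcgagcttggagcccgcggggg
Of the 8 windows, 6 held a match (NFKB1, REL, NFKBIA, NFKBIZ, TNFAIP3 and ICAM1), against 17.3% of all 35116 promoter windows of the same length. The κB consensus alone was in 11.3% of all windows and the variant in 9.74%. NFKBIA and ICAM1, the 2 members that changed, held the same variant match, TGGAAATTCC, on the gene's strand. In NFKBIA it began 82 bases and in ICAM1 187 bases before the start site. NFKB1 and NFKBIZ, which did not pass the test, held the same match on the opposite strand. It lay 48 to 39 bases before the start site in NFKB1 and 222 to 213 bases before it in NFKBIZ. TNFAIP3, which did not pass either, held matches that began 67, 56 and 55 bases before the start site. The NFKB2 and RELA windows held none of these letters. Matches are a description of the reference sequence and do not show binding.

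Of the 10 genes, 1 rose and 1 fell in the tau-labelled libraries and 8 did not pass (edgeR's quasi-likelihood test, two-sided, Benjamini-Hochberg adjusted p below 0.05 over all genes tested). Over all genes 42.7% were called, 21.3% higher and 21.4% lower, so the members' 20% lay below the background by this test. ICAM1 rose and NFKBIA fell. With per-library offsets for GC content and transcript length, 5 members rose and 1 fell, where 48.3% of all genes were called. The members therefore did not lie below the background in every setting. In bulk libraries such as these, fewer cells of a kind and less RNA per cell cannot be told apart. The members' median log2 fold change was 0.09, and that of all genes tested was 0.00439. The libraries of the labels did not overlap for 4 members in counts scaled with TMM (trimmed mean of M values): NFKB1, REL and ICAM1 were higher and NFKBIA was lower, while 54.7% of all genes were separated in this way.

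**Figure D1:**
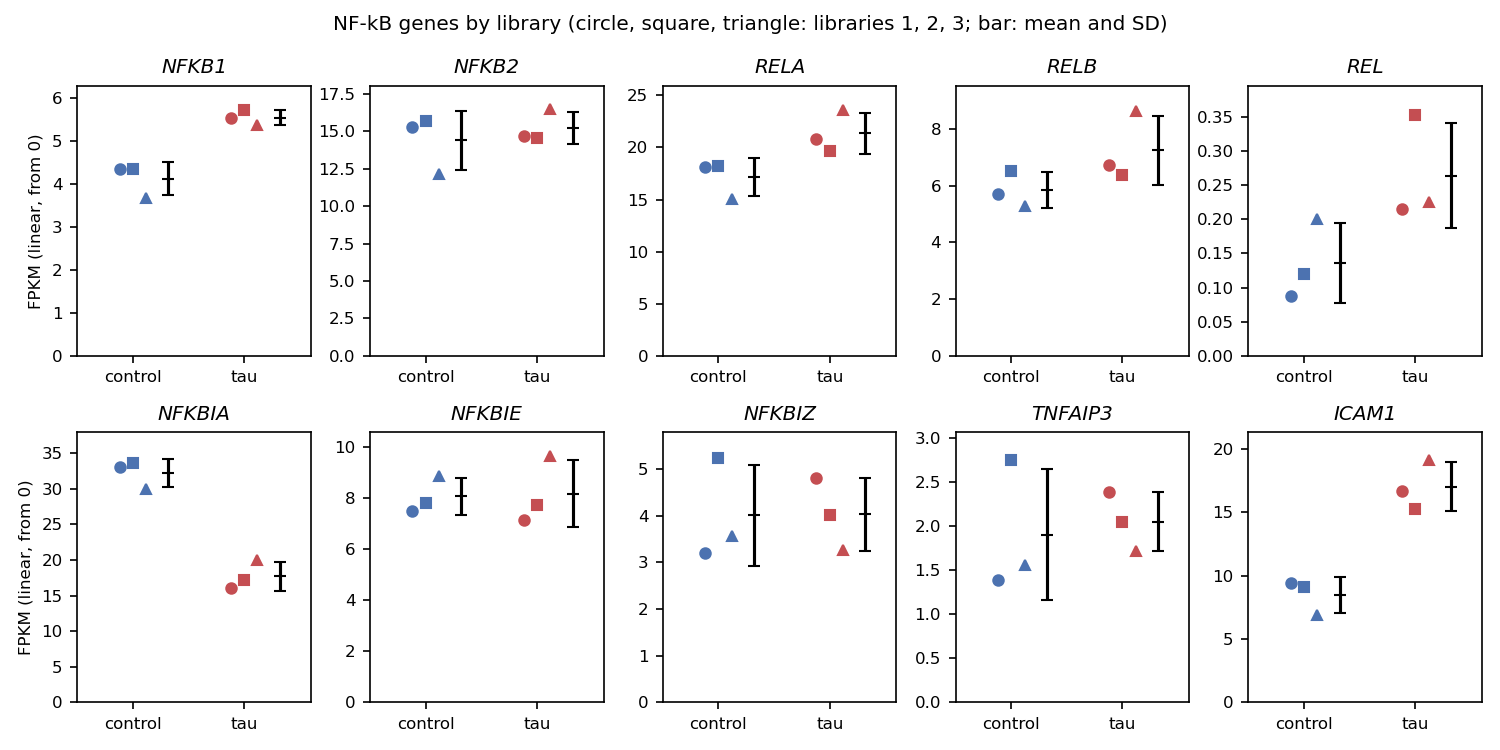
Level of each of the 10 genes in FPKM (vertical axes, linear from 0, each with its own scale) in the 3 control-labelled and 3 tau-labelled libraries, with points for libraries and bars for mean and SD. NFKBIA is lower and ICAM1 higher in every tau-labelled library, and TNFAIP3 and NFKBIZ are spread widely among the control-labelled ones.

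NFKBIA, which encodes the main inhibitor IκBα, had the highest mean level of the 10 in the control-labelled libraries, and it fell. NFKBIA (ENSG00000100906, chromosome 14, 35401513 to 35404749 on GRCh38) measured 33.0, 33.6 and 29.9 FPKM under the control label and 16.0, 17.2 and 19.96 under the tau label. The highest tau-labelled library was well below the lowest control-labelled one. The means were 32.2 ± 1.99 and 17.7 ± 2.02 FPKM (SD, n = 3 each). The fit put NFKBIA 1.97-fold lower (log2 fold change -0.98, SE 0.13, 95% interval -1.27 to -0.68, edgeR adjusted p = 0.000402). The call held in all 15 other settings, with log2 fold changes from -1.09 to -0.49, the smallest with offsets for GC content and transcript length.

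NFKBIE, which encodes the related inhibitor IκBε, did not pass. NFKBIE measured 7.51, 7.83 and 8.88 FPKM under the control label and 7.14, 7.74 and 9.65 under the tau label. The groups overlapped, with library 3 the highest of both. Its log2 fold change was -0.09 (95% interval -0.43 to 0.24, edgeR adjusted p = 0.654).

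NFKBIZ encodes a nuclear IκB protein that works with NFKB1 products at a set of inflammatory genes, and TNFAIP3 encodes an enzyme that edits ubiquitin chains to end the signal. Both are quickly induced by NF-κB, and neither passed. NFKBIZ measured 3.20, 5.24 and 3.57 FPKM under the control label and 4.81, 4.02 and 3.26 under the tau label. TNFAIP3 measured 1.39, 2.75 and 1.56 FPKM under the control label and 2.38, 2.05 and 1.71 under the tau label. For both genes control-labelled library 2 was the highest of all 6 and control-labelled library 1 the lowest, so the tau-labelled values lay inside the control-labelled range. The log2 fold change of NFKBIZ was -0.11 (95% interval -0.55 to 0.34) and that of TNFAIP3 was -0.01 (95% interval -0.57 to 0.55), with edgeR adjusted p-values of 0.697 and 0.974. Without control-labelled library 2 they were 0.12 and 0.34, with edgeR adjusted p-values of 0.651 and 0.226. The start of NFKBIZ overlapped NXPE3 by 241 bases on the same strand, and reads there cannot be assigned with certainty.

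ICAM1, the surface receptor for leukocyte integrins, rose. ICAM1 (ENSG00000090339, chromosome 19, 10271093 to 10285583) measured 9.43, 9.10 and 6.86 FPKM under the control label and 16.7, 15.3 and 19.1 under the tau label. Every tau-labelled library was above every control-labelled one. The means were 8.46 ± 1.4 and 17.0 ± 1.93 FPKM (SD, n = 3 each), and by the fit ICAM1 was 1.85-fold higher, a log2 fold change of 0.89 (SE 0.16, 95% interval 0.52 to 1.25, edgeR adjusted p = 0.00213). The call held in all 15 other settings, with log2 fold changes from 0.72 to 1.31. An unnamed non-coding gene on the other strand covered nearly the whole of ICAM1 but had only 6 to 17 counts per library, against 1612 to 4618 for ICAM1.

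Among the subunits, RELA and NFKB2 were the most abundant and REL was barely detected. RELA, the main activating subunit, measured 18.1, 18.2 and 15.1 FPKM under the control label and 20.9, 19.7 and 23.6 under the tau label. The FPKM values did not overlap, but the counts scaled with TMM did, and the log2 fold change of 0.20 (95% interval -0.10 to 0.50) did not pass (edgeR adjusted p = 0.258). NFKB1, whose product is the usual partner of RELA, measured 4.35, 4.36 and 3.68 FPKM under the control label and 5.55, 5.72 and 5.38 under the tau label. All tau-labelled libraries were higher, yet the log2 fold change of 0.31 (95% interval 0.03 to 0.58) did not pass after adjustment (edgeR adjusted p = 0.0715).

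NFKB2 and RELB form the dimer of the slower, alternative branch. NFKB2 measured 15.3, 15.7 and 12.1 FPKM under the control label and 14.7, 14.5 and 16.5 under the tau label. RELB measured 5.70, 6.53 and 5.28 FPKM under the control label and 6.71, 6.39 and 8.64 under the tau label. The groups overlapped for both genes, and tau-labelled library 3 was the highest for both. Their log2 fold changes were -0.04 (95% interval -0.35 to 0.28) and 0.20 (95% interval -0.17 to 0.56), with edgeR adjusted p-values of 0.855 and 0.365.

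REL, a subunit best known from lymphoid cells, gave counts of 79, 102 and 181 under the control label and 182, 292 and 209 under the tau label. The groups met within 1 count, at 0.201 FPKM in control-labelled library 3 and 0.214 in tau-labelled library 1. The log2 fold change of 0.85 (95% interval 0.12 to 1.57) did not pass (edgeR adjusted p = 0.0597). It passed in 4 of the 12 other settings that tested it, among them the fit without control-labelled library 3 (log2 fold change 1.19, edgeR adjusted p = 0.0148). REL shares 5702 bases with a non-coding gene on the same strand, which had 15 to 82 counts per library.

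Which subunits were called depended on the setting. Across the 17547 tested genes with a value, Spearman's rho between log2 fold change and transcript GC content was -0.32, as a description over genes, which are not independent replicates. The transcripts of RELB, NFKB2 and RELA had 64.5%, 62.4% and 61.3% GC, and those of REL had 40.4%. With per-library offsets for GC content and transcript length, RELA, RELB, NFKB2 and NFKB1 passed with log2 fold changes of 0.67, 0.59, 0.36 and 0.33 (edgeR adjusted p = 6.62e-05, 0.00189, 0.00756 and 0.0345). REL was at 0.41 and did not pass there (edgeR adjusted p = 0.201). In that setting 48.3% of all genes were called, 27.9% higher and 20.4% lower, and the median of all genes was 0.08. The offsets change GC content and length together, so their parts cannot be told apart. NFKB1 also passed with library size alone and with limma on log2 FPKM, at 0.39 to 0.42, and REL with DESeq2 and with the replicate block.

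**Figure D2:**
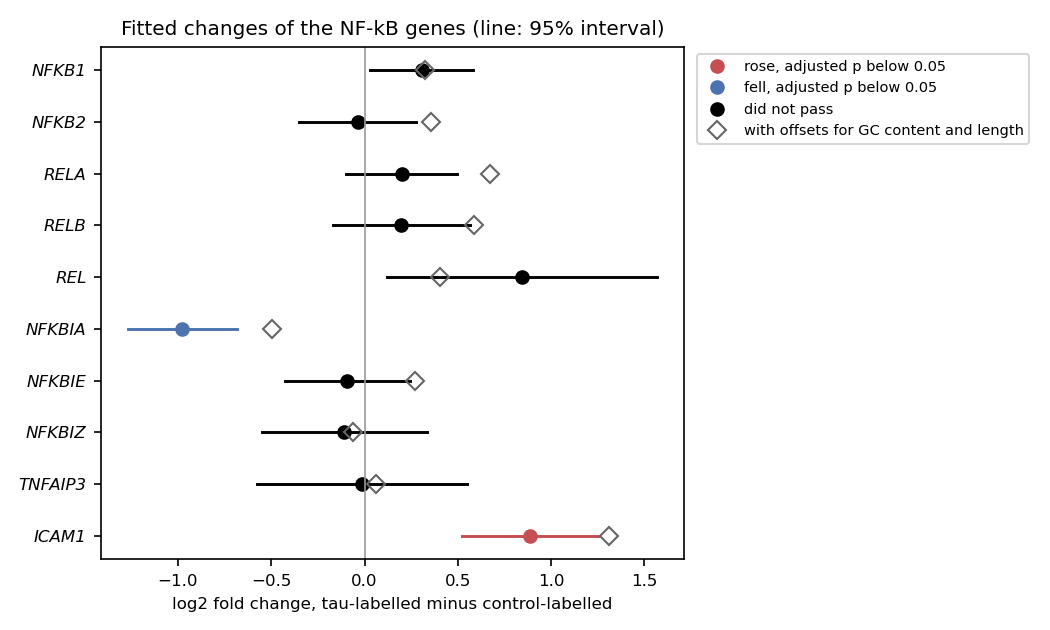
Log2 fold change of each gene, tau-labelled minus control-labelled (horizontal axis), with 95% intervals as lines, the fitted values as filled points and the values under the GC and length offsets as open diamonds. NFKBIA at -0.98 and ICAM1 at 0.89 are the points past the threshold, and the diamonds of RELA, RELB and NFKB2 lie to the right of their points.

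Per length, the order of levels in the control-labelled libraries was NFKBIA (32.2 FPKM), RELA (17.2), NFKB2 (14.4), ICAM1 (8.46), NFKBIE (8.07), RELB (5.84), NFKB1 (4.13), NFKBIZ (4.0), TNFAIP3 (1.9) and REL (0.136). The ranges over libraries overlapped between the neighbours RELA and NFKB2, ICAM1 and NFKBIE, and NFKB1 and NFKBIZ. In the tau-labelled libraries the order began with RELA (21.4 FPKM), NFKBIA (17.7), ICAM1 (17.0) and NFKB2 (15.2). Neighbours among these overlapped. The other 6 kept their order, and among them only the ranges of NFKBIE and RELB overlapped. The summed FPKM of the 5 subunits was 43.6, 44.9 and 36.4 under the control label and 48.0, 46.7 and 54.3 under the tau label (exact two-sided permutation p = 0.1, the smallest that 3 against 3 allows). FPKM ran higher under the tau label in general. The median log2 change was 0.15 over 11129 genes on log2(FPKM + 0.5). With TMM it was 0.02 over the same genes and 0.0044 over all genes tested. No subunit passed the edgeR test, and the part of this shift in the sum was not tested. RELA made up 41.2% ± 0.550 of that sum under the control label and 43.0% ± 0.725 under the tau label (SD, n = 3 each), and NFKB2 34.5% ± 0.942 and 30.7% ± 0.399 (SD, n = 3 each), each with an exact permutation p = 0.1. The shares of both genes did not overlap between the labels, and they differed by 1.80 and -3.80 percentage points.

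Ratios within a library do not depend on how libraries are scaled. The log2 ratio of NFKBIA to RELA FPKM was 0.86, 0.88 and 0.99 under the control label and -0.38, -0.20 and -0.24 under the tau label. NFKBIA thus stood above RELA in every control-labelled library and below it in every tau-labelled one, a difference of -1.18 on the log2 scale (exact two-sided permutation p = 0.1, the smallest possible). The log2 ratio of NFKBIE to RELA was -1.27, -1.22 and -0.76 against -1.55, -1.35 and -1.29, a difference of -0.31 (exact permutation p = 0.1). ICAM1 relative to NFKBIA moved from -1.81, -1.88 and -2.12 to 0.06, -0.17 and -0.06, a difference of 1.88 (exact permutation p = 0.1). NFKBIA and ICAM1, both textbook NF-κB targets, thus moved in opposite directions.

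**Figure D3:**
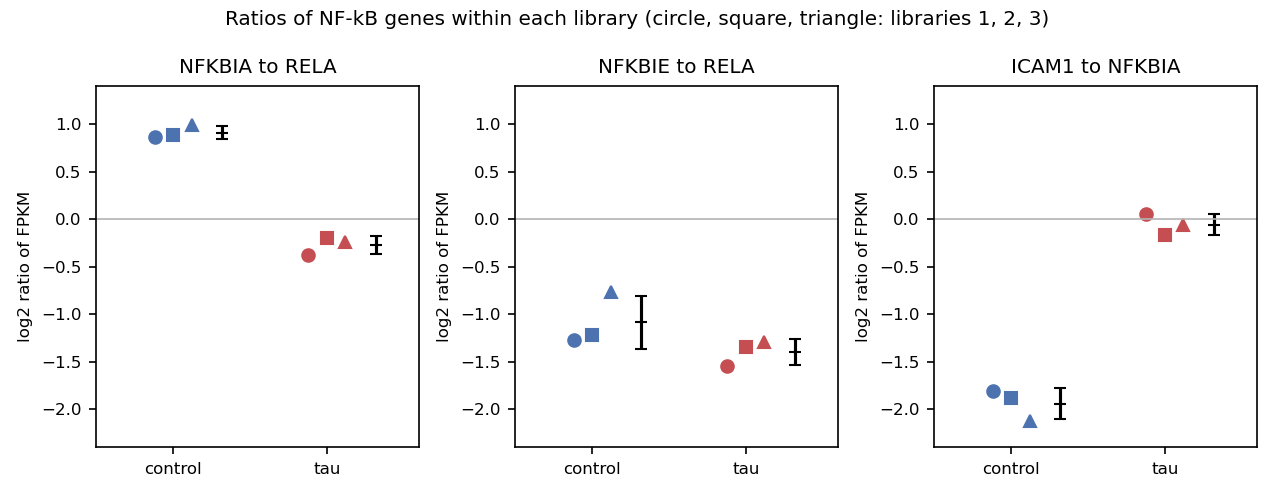
Log2 ratio of FPKM (vertical axes) for NFKBIA to RELA, NFKBIE to RELA and ICAM1 to NFKBIA in each of the 6 libraries, with points for libraries and bars for mean and SD. The line at 0 marks equal levels, which NFKBIA to RELA crosses between the labels.

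The other genes of the pathway were described from 5 lists of 96 genes, of which 83 were tested: 30 rose and 26 fell, 67.5% called against 42.7% of all genes. The lists were chosen with earlier results of these data known, so that difference is a description and not a test. Without control-labelled library 2 the falls numbered 17 and without tau-labelled library 1 they numbered 16. Few ligands were measurable. IL1B, interleukin-1β, measured 4.53, 8.42 and 6.21 FPKM under the control label and 2.58, 2.46 and 3.08 under the tau label, a 2.53-fold fall by the fit (edgeR adjusted p = 0.00107). IL1A, picked once its value was known, fell by 1.28 on the log2 scale from 0.826 FPKM. TNF, LTA, LTB and IL18 were below the filter on low counts, TNFSF12 did not pass and TNFSF14, these 2 likewise picked by value, rose from a trace level of 0.0189 FPKM. In all, 2 of 4 ligands tested fell and 1 rose (75% called against 42.7% of all genes, median log2 fold change -0.43).

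Of 13 receptors tested, 4 fell and 3 rose (53.8% called against 42.7% of all genes, median -0.31). The median was -0.09 without control-labelled library 3 and -0.53 without control-labelled library 1, and it was 0.0008 and -0.0062 with limma on the 8 receptors above 1 FPKM. The falls numbered 2 without control-labelled library 2 or tau-labelled library 1, 6 without control-labelled library 1 and 5 with DESeq2. With the GC and length offsets 4 rose and 6 fell (median -0.42), where 27.9% of all genes were called higher and 20.4% lower. TNFRSF1A, the main receptor for tumour necrosis factor, measured 71.2, 65.7 and 60.1 FPKM under the control label and 38.8, 37.8 and 44.1 under the tau label, a log2 fold change of -0.83 (SE 0.12, edgeR adjusted p = 0.000685). LTBR, the lymphotoxin receptor that feeds the alternative branch, fell 2.56-fold (7.02 ± 0.222 and 2.96 ± 0.371 FPKM, SD, n = 3 each). TNFRSF12A, the receptor for the cytokine TWEAK, rose 1.58-fold (45.5 ± 6.05 and 77.9 ± 9.84 FPKM, SD, n = 3 each). IL1RAP, the accessory chain of the interleukin-1 receptor, rose 1.64-fold. With the GC and length offsets all 4 calls held, but the log2 fold changes of TNFRSF1A, LTBR and IL1RAP shrank to -0.42, -0.88 and 0.38 and that of TNFRSF12A grew from 0.66 to 1.17.

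The kinases and adaptors between receptor and NF-κB mostly rose: 18 of 28 passed upward and 4 downward (78.6% called against 42.7% of all genes, median 0.51). Over all genes 21.3% were called higher and 21.4% lower. Without control-labelled library 2 the rises numbered 12, and over the other settings they ran from 14 to 18. With the GC and length offsets 17 rose and 2 fell, with a median of 0.36. In that setting 27.9% of all genes were called higher and 20.4% lower, with a median of 0.08. IRAK4, the first kinase below the interleukin-1 receptor, measured 3.55, 3.74 and 4.13 FPKM under the control label and 7.90, 8.36 and 7.07 under the tau label, a log2 fold change of 0.91 (SE 0.11, edgeR adjusted p = 0.000238). TRAF2, a ubiquitin ligase of tumour necrosis factor signalling, rose 1.94-fold, and TRAF3, which keeps the MAP3K14 kinase low, rose 1.62-fold. Of the kinase complex itself, picked once its values were known, CHUK and IKBKB rose with log2 fold changes of 0.61 and 0.36, while IKBKG stood at -0.06 (edgeR adjusted p = 0.734). MAP3K14, picked in the same way, rose by 0.61 on the log2 scale. With the GC and length offsets IRAK4 rose by 0.57 and TRAF2 by 1.497 on the log2 scale. BIRC3, likewise picked by its value, is both an adaptor and an NF-κB target, and it rose by 2.15 on the log2 scale at a low level (0.131, 0.197 and 0.121 against 0.659, 0.921 and 0.601 FPKM).

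The 4 falls of that list were SHARPIN, TAB1, TRADD and IKBKE, and they numbered 2 without control-labelled library 1 or 2 or tau-labelled library 1 or 2. SHARPIN, a subunit of the linear ubiquitin ligase, fell 2.11-fold (21.1 ± 2.1 and 10.8 ± 2.29 FPKM, SD, n = 3 each), a log2 fold change of -1.08 that was -0.56 with the GC and length offsets. TAB1, a partner of the kinase encoded by MAP3K7, and TRADD, an adaptor of TNFRSF1A, had log2 fold changes of -0.65 and -0.54, and with the GC and length offsets they were -0.19 and -0.10 and did not pass (edgeR adjusted p = 0.120 and 0.364). TRADD also did not pass without control-labelled library 1 or 2 or tau-labelled library 1 or 2 (edgeR adjusted p = 0.0537, 0.0654, 0.0865 and 0.0890). IKBKE is named to complete the count. RNF31, the catalytic subunit of the linear ubiquitin ligase and picked by its values, varied within groups (3.64, 3.82 and 0.992 against 1.24, 0.365 and 2.61 FPKM) and did not pass.

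Among 8 other inhibitors, 3 rose and 3 fell (75% called against 42.7% of all genes, median -0.13). Without tau-labelled library 1 only 1 fell, and without control-labelled library 1 the median was 0.03. With the GC and length offsets 4 rose and 1 fell (median 0.13), where 27.9% of all genes were called higher and 20.4% lower. ZC3H12A, a ribonuclease that degrades inflammatory messages, measured 23.4, 23.2 and 18.9 FPKM under the control label and 7.82, 7.71 and 9.49 under the tau label, a 2.84-fold fall (log2 fold change -1.51, SE 0.15, edgeR adjusted p = 7.89e-05). BCL3, a nuclear IκB protein, and TNIP2, a partner of TNFAIP3, had log2 fold changes of -0.72 and -0.50. Under the GC and length offsets they were -0.20 and -0.06 and did not pass (edgeR adjusted p = 0.227 and 0.574). BCL3 did not pass without control-labelled library 1 or 2 or without tau-labelled library 1 or 2 (edgeR adjusted p = 0.0653, 0.0505, 0.0860 and 0.0836), and TNIP2 did not without tau-labelled library 1 (0.0507). NFKBIB, which encodes the inhibitor IκBβ, rose (9.92 ± 1.30 and 15.9 ± 1.10 FPKM, SD, n = 3 each, log2 fold change 0.56, edgeR adjusted p = 0.0106), and did not pass without control-labelled library 2 (edgeR adjusted p = 0.0549). CYLD and OTULIN, enzymes that remove ubiquitin chains, rose 1.63-fold and 1.46-fold. With the offsets the log2 fold change of CYLD went from 0.71 to 0.30 and that of NFKBIB from 0.56 to 1.0033. The inhibitor family therefore held a fall in NFKBIA, a rise in NFKBIB and no call for NFKBIE.

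Of 30 other targets tested, 13 fell and 5 rose (60% called against 42.7% of all genes, median -0.48). Over all genes 21.4% were called lower and 21.3% higher. With the GC and length offsets 11 fell and 7 rose (median -0.21), where 20.4% of all genes were called lower and 27.9% higher. With limma on the 24 targets above 1 FPKM 10 or 9 fell and 6 rose (median -0.32). TNFRSF9, a receptor of the tumour necrosis factor family, fell 3.49-fold (4.63 ± 0.285 and 1.43 ± 0.319 FPKM, SD, n = 3 each), TNFAIP2 fell 2.14-fold and NUAK2, a kinase, fell 2.66-fold. GADD45B, a stress protein, measured 6.73, 6.13 and 5.80 FPKM under the control label and 14.2, 12.7 and 14.0 under the tau label, a 2.01-fold rise (edgeR adjusted p = 0.000354). IL32, a secreted inflammatory protein, rose 5.22-fold from 0.256 FPKM, and CFLAR, which blocks death receptor signalling, rose 1.5-fold. With the offsets TNFAIP2 and GADD45B had log2 fold changes of -0.72 and 1.55 in place of -1.10 and 1.007, and with limma at a pseudocount of 0.5 NUAK2 was at -0.92 in place of -1.41. The chemokines and cytokines CXCL8, IL6 and CCL2, picked once their values were known, had log2 fold changes of -1.57, -1.75 and -1.18, and all passed. LIF and CSF1 also fell (-0.49 and -0.46). CXCL1, CXCL2, CXCL3, CCL5 and CSF2 did not pass: the first 4 were at -0.52, -0.87, -0.61 and -0.53 and CSF2 at 0.70 (edgeR adjusted p = 0.468, 0.0620, 0.240, 0.762 and 0.0696).

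**Figure D4:**
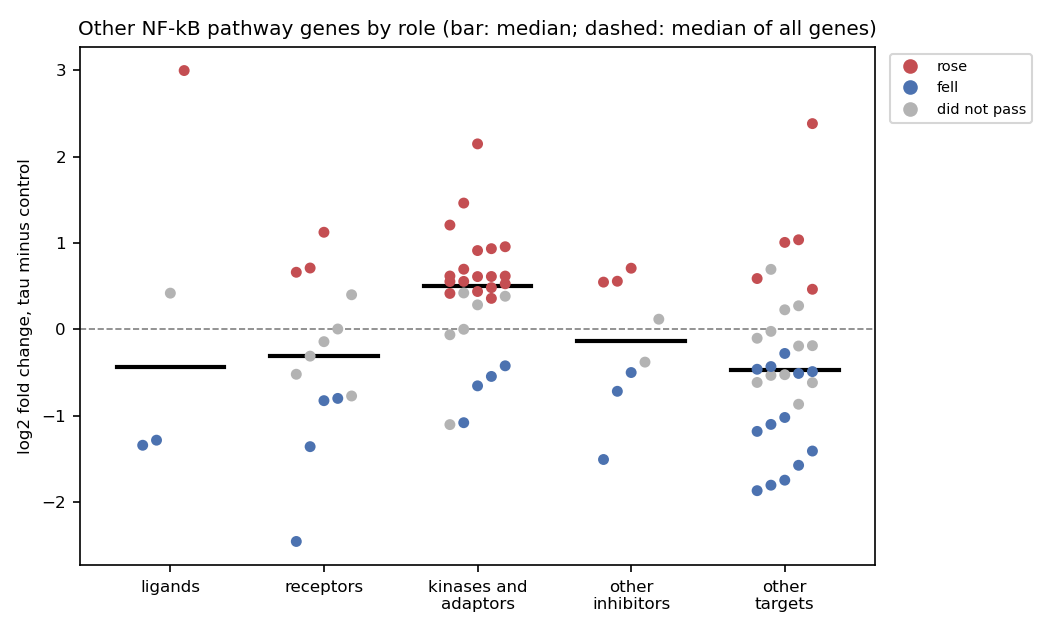
Log2 fold change (vertical axis, tau minus control) of the tested genes of 5 further NF-κB lists, with 1 point per gene coloured by call, thick bars for list medians and a dashed line for the median of all genes. The kinases and adaptors centre at 0.51 and the other targets at -0.48.

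Control-labelled library 2 stood high for many inducible targets, a pattern noticed after the values were known. It was the highest of the 3 control-labelled libraries for 7 of the 10 members and 15 of the 30 targets, against 26.4% of all genes tested. TNFAIP3 and NFKBIZ were 0.90 and 0.63 higher there on the log2 scale than the mean of the other control-labelled libraries, and CXCL8, CXCL2 and IL6, picked in the same way, were 1.30, 1.10 and 0.88 higher. NFKBIA was only 0.10 higher. Without that library the targets gave 9 falls and 5 rises, with a median of -0.29.

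A broader view came from the pathway annotation in the authors' deposited table, looked at after the members' values were known. It assigns 93 genes to NF-κB signalling, 7 of them members, with REL, NFKBIE and NFKBIZ outside it. Of the 80 tested, 31 rose and 13 fell (55% called against 42.7% of all genes, median 0.28). Without control-labelled library 2 the rises numbered 21, and without tau-labelled library 3 the median was 0.18.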

How the data were processed

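The submitters' processing notes name GRCh38 and the tools StringTie 2.1.6, HISAT2 2.2.1 and cutadapt 1.9, and list DESeq2 and edgeR without a role. What made the counts, and from which annotation release, is not given in the sources used here. Per the labels' protocols, libraries were poly(A)-selected and strand-marked with dUTP, but whether counting used the strand is not stated. The authors' deposited table holds whole-number counts and FPKM per gene and library, and 0 columns were left unmapped. FPKM shows levels, and counts were tested.

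Counts were filtered with filterByExpr (minimum count 10, minimum total 15), scaled with TMM and tested with edgeR 4.0.16 (glmQLFit, glmQLFTest) in R 4.3.3 with group as the sole term. An adjusted p below 0.05 is called. A standard error is the log2 fold change divided by the square root of F. The 10 members and the wider lists were chosen with earlier results of these data known. Named from each wider list were the 3 rising and 3 falling genes with the smallest p and at least 1 FPKM in the higher group; other genes of these lists were picked once their values were known. The alternatives used DESeq2 1.42.0, limma 3.58.1 on log2 FPKM with pseudocounts of 0.5 and 0.1, other scalings and filters, a replicate block, offsets from GENCODE transcripts (97.9% of tested genes matched) and the omission of each library. Same-numbered libraries were not treated as paired.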

Additional observations from a re-analysis of the deposited data

How the results depend on the processing

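The calls of NFKBIA and ICAM1 held in all 15 other settings, and MAPT was lower in all 12 that tested it. The number of members that rose, 1 as reported, was 2 with DESeq2, 2 with either limma pseudocount, 3 with library size alone and 5 with GC and length offsets, and 1 to 2 when a library was left out. The numbers same-numbered libraries carry did not pair them: their deviations from the group means correlated at -0.038, -0.011 and -0.094, and no library correlated best with its own number. With the replicate block 2 members rose (ICAM1 and REL), and over all genes 3181 rose and 3139 fell. On the 11129 genes with a mean of at least 1 FPKM, limma gave 3968 and 3863 rises with 2270 and 2223 falls (pseudocounts 0.5 and 0.1). Among these calls 63.6% and 63.5% were higher, against 50.3% by edgeR on the same genes and 49.9% over all genes tested. Library size alone moved the all-gene median from 0.00439 to 0.12 (log2). Falls in the wider lists ran from 16 to 27 when a library was left out.

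Of the 8 members that did not pass, 4 changed sign in some settings and NFKB1, RELA, RELB and REL stayed positive in every setting that tested them. NFKB2 was 0.0773 with library size alone, 0.0855 and 0.0880 with limma and 0.357 with GC and length offsets, and ran from -0.178 to 0.0319 over the omissions. NFKBIE was 0.0137, 0.0105, 0.0106 and 0.272 in those settings, and -0.251 to 0.0069 over the omissions. NFKBIZ was 0.0071 with library size alone, 0.0200 and 0.0231 with limma, and -0.243 to 0.124 over the omissions. TNFAIP3 was 0.102 with library size alone, 0.119 and 0.151 with limma, 0.0423 with the replicate block, 0.0622 with the offsets, and -0.180 to 0.344 over the omissions. The cause was not tested. REL and MAPT lie below the 1 FPKM minimum of 3 settings. REL, with 79 to 292 counts per library, ran from 0.405 with the offsets to 1.19.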
